A study of Rattus norvegicus with 8 samples.

Results

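Cholesterol synthesis in the rat brain was followed through 8 listed enzyme genes, Acat2, Hmgcs1, Idi1, Fdps, Fdft1, Sqle, Cyp51 and Dhcr7, each compared over 3 durations of isoflurane anaesthesia. The genes were listed by function, and the list was drawn up with earlier results of these data known. The platform's probe-to-gene table named 19 probe sets for 7 of the 8 genes, of 8799 probe sets on the array, and 18 of them entered the tests with 7770 probe sets in all. Cyp51 had 5 of the 19 probe sets, Fdft1 4, Fdps 3, Idi1, Dhcr7 and Acat2 2 each, and Sqle 1. Hmgcs1, the enzyme that condenses acetoacetyl-CoA with acetyl-CoA, was not listed under its symbol in that table and is not analysed here. The probe set of Idi1 that was not tested, rc_AI045395_at, lay at or below the floor of 9.1 intensity units on all 8 arrays.

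The samples were total RNA of whole brains from intubated rats, 1 array per sample. The 3 control samples followed only 3 min of isoflurane, a volatile anaesthetic, with perfusion by ice-cold saline straight after. Exposure to isoflurane at 2% lasted 1 hr for 2 samples and 2 hr for 3 samples. The control is thus itself a brief exposure. The labels state the perfusion for the controls only, and they give no strain, sex or age. No label names the animal behind a sample, so p-values measure the spread between these samples, which may be technical in part. Control replicate 3 had the highest 3' to 5' signal ratio of the actin control probe sets, a measure of RNA integrity, at 2.89 against 1.04 to 1.68 on the other 7 arrays, but the lowest ratio of the hexokinase control probe sets, at 1.91 against 2.01 to 6.53. It was the lowest array for 9 of the 18 tested member probe sets.

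Cholesterol is built from acetyl-CoA through mevalonate, farnesyl diphosphate, squalene and lanosterol. The brain makes nearly all of its own cholesterol because the blood-brain barrier keeps lipoprotein cholesterol out, and it uses most of it for myelin and for cell membranes, with astrocytes supplying neurons. Low sterol in the endoplasmic reticulum releases SREBP transcription factors, which bind sterol regulatory elements in the promoters of most genes of the pathway, usually beside sites for NF-Y and Sp1.

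The promoters of 5 of the 7 measured genes were found in the RefSeq table of assembly GRCr8. The 4 windows below, from 250 bases before to 50 bases after the gene start, were picked with the values known: they are those of the 3 genes among these 5 whose tested probe sets all averaged higher after 2 hr than in controls (Acat2 at chr1:50100590-50100889, Cyp51 at chr4:30991443-30991742 and Dhcr7 at chr1:208444184-208444483, all on the plus strand) and of Fdps (chr2:176804767-176805066, minus strand), whose brightest probe set read lower. Capitals mark matches on either strand to TCACNCCAC, a sterol regulatory element of the type in the low-density lipoprotein receptor gene, TCACACGAG, the core of the element described in the farnesyl diphosphate synthase gene and known as SRE-3, CCAAT, the NF-Y box, and GGGCGG, the Sp1 box. Matches to the same motif may overlap, as in the Dhcr7 window.
Acat2: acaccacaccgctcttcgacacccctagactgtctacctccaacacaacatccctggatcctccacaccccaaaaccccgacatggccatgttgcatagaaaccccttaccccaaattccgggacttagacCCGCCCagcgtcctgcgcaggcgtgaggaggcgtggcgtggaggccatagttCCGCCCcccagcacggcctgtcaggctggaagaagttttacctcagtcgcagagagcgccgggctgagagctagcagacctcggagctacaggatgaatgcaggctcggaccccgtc
Cyp51: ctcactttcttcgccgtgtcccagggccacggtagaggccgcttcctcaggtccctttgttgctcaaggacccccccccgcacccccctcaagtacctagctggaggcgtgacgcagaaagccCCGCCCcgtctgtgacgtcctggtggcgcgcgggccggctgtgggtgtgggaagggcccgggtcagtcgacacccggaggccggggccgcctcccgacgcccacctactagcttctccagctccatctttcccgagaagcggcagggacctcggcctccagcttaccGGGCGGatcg
Dhcr7: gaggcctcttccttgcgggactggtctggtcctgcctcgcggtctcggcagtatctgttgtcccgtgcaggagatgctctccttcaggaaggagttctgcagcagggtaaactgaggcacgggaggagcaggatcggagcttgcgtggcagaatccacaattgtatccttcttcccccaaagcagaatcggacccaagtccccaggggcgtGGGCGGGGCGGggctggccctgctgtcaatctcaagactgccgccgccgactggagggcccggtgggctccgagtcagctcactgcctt
Fdps: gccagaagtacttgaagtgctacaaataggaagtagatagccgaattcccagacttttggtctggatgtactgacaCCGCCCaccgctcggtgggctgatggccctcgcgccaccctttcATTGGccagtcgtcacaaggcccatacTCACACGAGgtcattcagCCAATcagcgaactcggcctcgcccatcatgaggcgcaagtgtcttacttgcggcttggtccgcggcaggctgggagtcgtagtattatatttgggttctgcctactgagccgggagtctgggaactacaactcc

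The Fdps window held the only TCACACGAG, 103 bases before the gene start, between CCAAT boxes at 130 and 85 bases before it. Of all 33469 promoter windows, 0.123% held TCACACGAG. The window of Idi1, which is not printed, held 2 CCAAT boxes at 66 and 35 bases before the start. CCAAT was found in 2 of the 5 windows and in 37.5% of all windows, and GGGCGG in 4 of the 5 and in 33.1% of all. TCACNCCAC was found in none of the 5 windows and in 1.12% of all. These are matches of letters in 1 short window per gene. The promoters of Fdft1 and Sqle are named only.

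After 2 hr of isoflurane the mean of every tested probe set of Dhcr7, Acat2, Cyp51, Fdft1 and Sqle lay above that of the controls. On the brightest probe sets the differences were larger for Dhcr7 (1.86-fold) and Acat2 (1.40-fold) than for the other members. Without control replicate 3 the log2 changes on these 2 probe sets were 0.42 for Dhcr7 and 0.50 for Acat2. The mean of Idi1 and of 2 of the 3 Fdps probe sets lay below that of the controls. None of these differences passed the test. Of the 18 probe sets, 0 had an adjusted p under 0.05 (limma with Benjamini-Hochberg adjustment over 7770 probe sets, adjusted p = 1.00 for each), as did 0% of all probe sets. At an unadjusted p under 0.05 there were 3 of the 18, against 1.79% of all probe sets, and these 3 belonged to only 2 genes, Cyp51 and Dhcr7. In whole tissue, fewer cells of a type and less RNA per cell cannot be told apart. Values are intensities on the linear scale as deposited, and changes are differences of group means of log2 intensity.

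Of the 18 probe sets 15 read higher after 2 hr than in the controls and 3 lower, beside 4064 and 3706 of all 7770 probe sets. On the brightest probe set of each gene, 5 of the 7 genes read higher and 2 lower. The median log2 change over the 7 genes, each represented by its brightest probe set, was 0.15, against a median of 0.02 over all probe sets tested. Without control replicate 3 the count was 12 of 18, the median was -0.052 and none had an unadjusted p under 0.05. Over all alternative settings the number at an unadjusted p under 0.05 ran from 0 to 6, the highest with a block for the arrays of low 5S reading. That block held control replicates 1 and 2 and 2 hr replicate 1, so control replicate 3 was the only control outside it. Every 2 hr array lay above every control array for 1 of the 18 probe sets, against 2.9% of all probe sets, and below them for 0, against 2.55%.

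After 1 hr 10 of the 18 probe sets read higher than the controls and 8 lower, with a median of 0.04 over the 7 genes and of 0.05 over all probe sets tested. Limma called 0 of the 18 and 0% of all probe sets, and 0 of the 18 had an unadjusted p under 0.05, against 2.68% of all. With the block for low 5S reading 4 of the 18 had one. That block left control replicate 3 as the only control beside the 1 hr arrays. Both 1 hr arrays lay above all controls for 2 of the 18, against 7.54% of all, and below them for 0, against 5.11%. Between 2 hr and 1 hr limma again called 0 of the 18 and 0% of all probe sets. Of the 18, 15 read higher after 2 hr than after 1 hr, beside 3683 of all 7770. On the brightest probe sets 5 of the 7 genes did, with a median of 0.12, against -0.03 over all probe sets tested. An unadjusted p under 0.05 was found for 1 of the 18, against 2.77% of all, and the ranges parted upward for 5, against 5.98%, and downward for 0, against 7.82%. Both exposures were set against the same 3 control arrays.

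**Figure D1:**
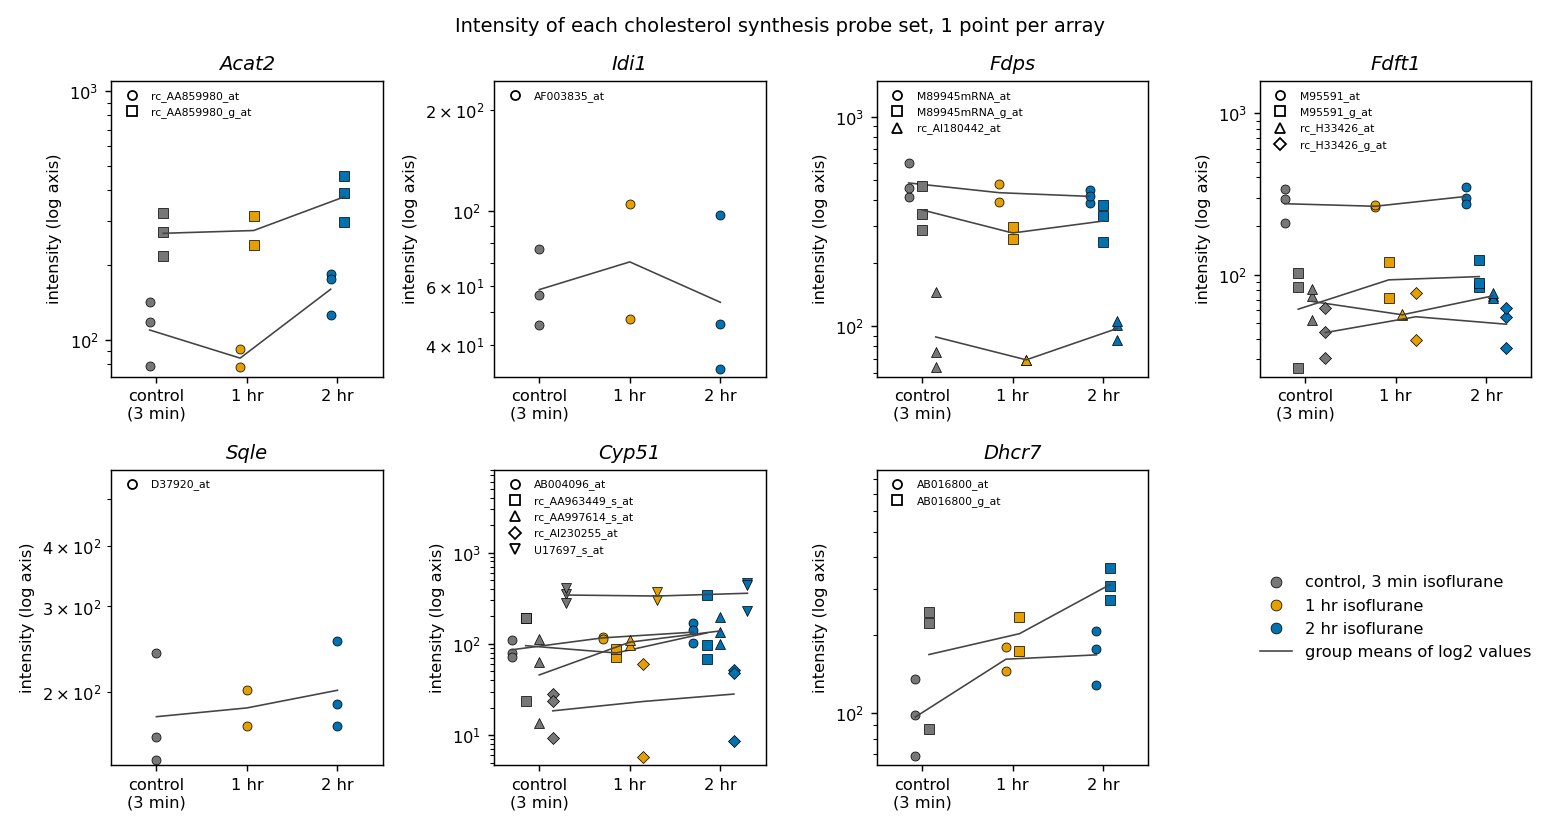
Intensity (log axis, arbitrary units) of every tested probe set of the 7 measured genes, 1 point per array, for control, 1 hr and 2 hr, with lines joining the group means of log2 values and 1 marker shape per probe set. The Dhcr7 probe set AB016800_g_at shows all 2 hr arrays above all controls, and the lowest control point of 87.4 is replicate 3.

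Acat2, the cytosolic thiolase that joins acetyl-CoA units to acetoacetyl-CoA at the start of the pathway, was read by a pair of probe sets from 1 sequence. Probe set rc_AA859980_at gave 78.6, 142 and 117.6 in control replicates 1 to 3, 77.6 and 91.7 after 1 hr, and 183.6, 176.1 and 125.9 after 2 hr. All 2 hr arrays lay above both 1 hr arrays, while the lowest 2 hr array lay within the range of the controls. The log2 change was 0.54 (SE 0.317) for 2 hr against control, -0.38 (SE 0.354) for 1 hr against control and 0.92 (SE 0.354) for 2 hr against 1 hr. The last had an unadjusted p of 0.0274 and an adjusted p of 1.00 in limma. Probe set rc_AA859980_g_at gave 217.7, 324.9 and 272.4 in controls, 239.5 and 315.9 after 1 hr, and 388.7, 456.9 and 298.9 after 2 hr. Here the 2 hr arrays overlapped both other groups at replicate 3, and the 2 hr change against control was 0.49 (SE 0.275), a 1.40-fold higher mean. Without control replicate 3 the 2 hr changes were 0.60 and 0.50, and without control replicate 1 they were 0.31 and 0.34.

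Idi1, the isomerase that makes dimethylallyl diphosphate from isopentenyl diphosphate, gave 56.3, 77.2 and 45.7 in controls, 104.5 and 47.6 after 1 hr, and 97.5, 34 and 46.2 after 2 hr (AF003835_at). Each group spread widely and they overlapped fully. The log2 change for 2 hr against control was -0.13, with a wide 95% interval from -1.25 to 0.996, and -0.30 without control replicate 3.

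Fdps, which makes the farnesyl diphosphate used for sterols, for protein prenylation and for ubiquinone, read 411.9, 454.6 and 602.4 in controls, 392.8 and 479.5 after 1 hr, and 386.6, 449.4 and 416.6 after 2 hr on M89945mRNA_at. Its highest array was control replicate 3, while that array was the lowest control for 11 of the 18 tested member probe sets and the highest for 4. The log2 change for 2 hr against control was -0.21 (95% interval -0.78 to 0.35) on this probe set, -0.18 on M89945mRNA_g_at and 0.13 on rc_AI180442_at. All 3 read highest on control replicate 3 among the controls, at 602.4, 466.1 and 145.5, and without that array the changes were -0.054, 0.012 and 0.49.

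Fdft1, squalene synthase, catalyses the first step that leads to sterols alone. Its probe set M95591_at gave 340.4, 293.2 and 207.8 in controls, 262 and 268 after 1 hr, and 299.3, 347.5 and 272 after 2 hr, and the 2 hr arrays overlapped the controls. The changes for 2 hr against control were 0.15 (SE 0.261) on M95591_at, 0.67 on M95591_g_at, 0.11 on rc_H33426_at and 0.17 on rc_H33426_g_at. The M95591_g_at value rested on control replicate 3, which read 26.5 against 83.6 and 102.6 in the other controls, and without it the change was 0.069. On the other 3 probe sets it was then -0.052, 0.25 and -0.087. The 4 probe sets did not follow one another over the 8 arrays, with Pearson correlations from -0.35 to 0.67 over 6 pairs.

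Sqle, squalene epoxidase, is an oxygen-requiring and rate-limiting enzyme of the sterol branch. It read 161, 240 and 144.8 in controls, 201.9 and 169.7 after 1 hr, and 254.2, 188.8 and 170 after 2 hr (D37920_at). The groups overlapped, and the log2 change for 2 hr against control was 0.18 (95% interval -0.47 to 0.83). It was 0.034 without control replicate 3 and 0.013 without 2 hr replicate 1.

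Cyp51, the cytochrome P450 that removes a methyl group from lanosterol, had the most probe sets and the least even readings. Probe set AB004096_at gave 79.6, 111 and 72.6 in controls, 120.3 and 112.5 after 1 hr, and 169.6, 101.6 and 140.7 after 2 hr. Both 1 hr arrays and 2 of the 3 arrays at 2 hr lay above all controls. The log2 changes were 0.64 (SE 0.311) for 2 hr and 0.43 (SE 0.348) for 1 hr, both against control.

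The larger Cyp51 change was on rc_AA997614_s_at, at 112, 62.5 and 13.6 in controls, 97.8 and 111.5 after 1 hr, and 195, 135.3 and 100.9 after 2 hr. Control replicate 3 stood far below the rest. The log2 change for 2 hr was 1.60 (SE 0.671, unadjusted p = 0.0392, adjusted p = 1.00 in limma), and without that array it was 0.73. Probe set rc_AA963449_s_at also read lowest on control replicate 3, at 23.6 against 194.4 and 190.1, and its 2 hr change was 0.46 with that array and -0.54 without it. Probe set rc_AI230255_at read near the floor on some arrays, between 5.8 and 60.1, with a 2 hr change of 0.61 (SE 0.868). The brightest probe set, U17697_s_at, gave 351.2, 406.1 and 282.5 in controls, 365.6 and 305.6 after 1 hr, and 464.1, 437.6 and 226.9 after 2 hr. Its 2 hr change was 0.06 (95% interval -0.65 to 0.78), and it turned to -0.013 when arrays were centred on their medians. The suffix _s_at marks probe sets that can match more than 1 transcript.

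Dhcr7, the reductase that makes cholesterol from dehydrocholesterol in the last step, had 2 tested probe sets. It was the only member with all 2 hr arrays above all controls on any probe set. Probe set AB016800_g_at gave 246, 222.2 and 87.4 in controls, 174.2 and 235.6 after 1 hr, and 361.7, 273.6 and 309.4 after 2 hr. All 2 hr arrays lay above all arrays of both other groups. The mean log2 intensity was 8.29 ± 0.20 (SD, n = 3) after 2 hr and 7.40 ± 0.82 (SD, n = 3) in controls, a difference of 0.89 (SE 0.391, 95% interval 0.02 to 1.77) or 1.86-fold. Its unadjusted p was 0.0464 and its adjusted p 1.00 in limma.

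Probe set AB016800_at of Dhcr7 gave 98.2, 135.1 and 68.6 in controls, 145.1 and 180 after 1 hr, and 207.7, 176.8 and 129 after 2 hr. Both 1 hr arrays lay above all controls, and so did 2 of the 3 arrays at 2 hr. The log2 changes were 0.79 (SE 0.330, unadjusted p = 0.0380) for 2 hr and 0.74 (SE 0.369) for 1 hr, and the adjusted p was 1.00 for both in limma. The probe sets thus placed the 1 hr arrays differently, since AB016800_g_at read 0.27 (SE 0.437) for 1 hr against control. Without control replicate 3 the 2 hr changes were 0.54 on AB016800_at and 0.42 on AB016800_g_at.

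**Figure D2:**
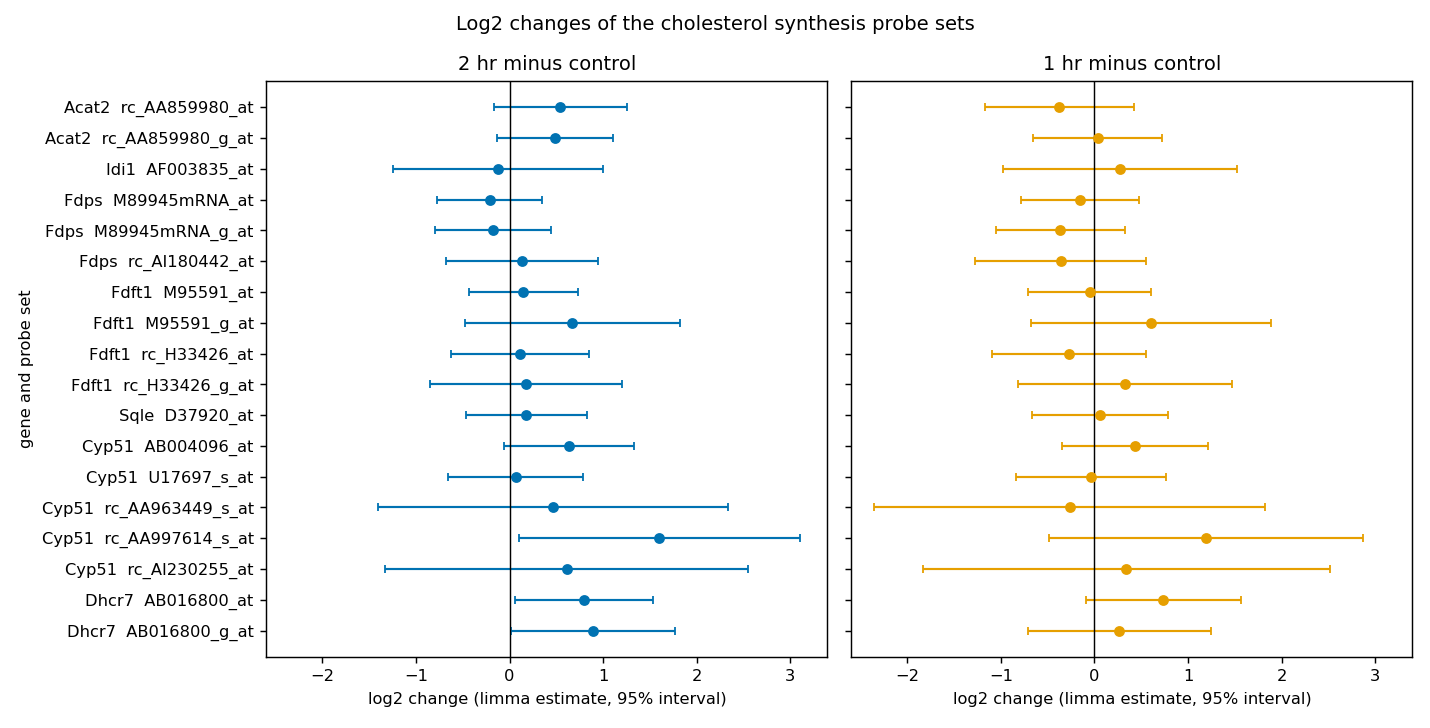
Log2 change of each tested probe set with its 95% interval from limma, for 2 hr minus control (left) and 1 hr minus control (right), in pathway order from Acat2 to Dhcr7. The intervals of 3 probe sets on the left, 1 of Cyp51 and both of Dhcr7, lie above 0, and every interval on the right includes 0.

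The 7 genes did not vary as one unit over the 8 arrays. Between pairs of genes, on their brightest probe sets, Pearson correlations ran from -0.79 to 0.76 with a median of 0.32 over 21 pairs, as a description over arrays that share the group differences. Sqle followed the mean of the other members most closely (r = 0.89 over 8 arrays) and Cyp51 next (r = 0.68), while Fdps ran against it (r = -0.76). Probe sets of the same gene were alike for Acat2 (r = 0.89) and Dhcr7 (r = 0.77).

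The mean profile of the 7 genes, centred per gene, was -0.07, 0.16 and -0.37 on control replicates 1 to 3, 5.2e-05 and -0.07 on the 1 hr arrays, and 0.36, 0.10 and -0.12 on 2 hr replicates 1 to 3. The groups overlapped, with 2 hr replicate 3 below control replicates 1 and 2, and control replicate 3 lowest of all. The 3' to 5' ratio of GAPDH on that array was 1.56 against 0.884 to 1.39 on the others, while that of hexokinase, as given above, was the lowest there and highest on control replicate 2. The part of RNA integrity in the low member values of that array was not tested.

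**Figure D3:**
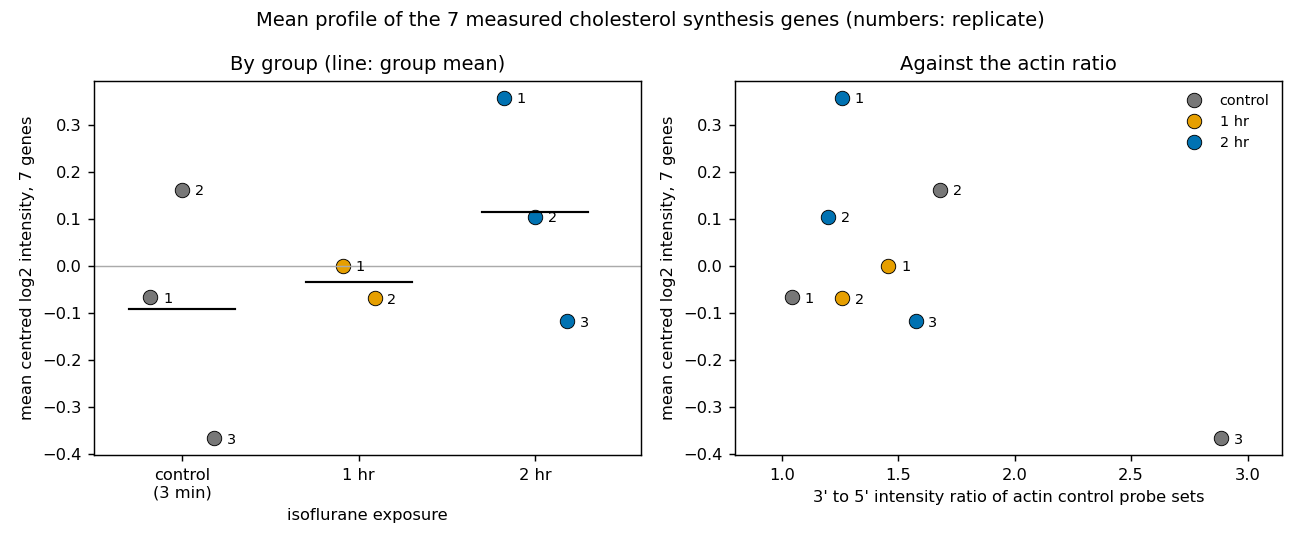
Mean centred log2 intensity of the 7 measured genes on each array, by group with group means as lines (left) and against the 3' to 5' ratio of the actin control probe sets (right), with replicate numbers beside the points. Control replicate 3 stands alone at -0.37 and at an actin ratio of 2.89.

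Other array properties also ran across the groups. The highest intensity exceeded 20000 on control replicate 3, 1 hr replicate 1 and 2 hr replicate 3, and the 5S ribosomal RNA control probe set read under 50 on control replicates 1 and 2 and 2 hr replicate 1. Within the arrays of high top intensity (1 against 1) the median 2 hr difference of the 7 genes was 0.13, and within the others (2 against 2) it was 0.16. It was 0.37 within the arrays of low 5S reading (1 against 2 controls) and 0.31 within the others (2 against 1 control). For Dhcr7 AB016800_g_at the difference was 1.82 and 0.43 within the strata of top intensity and 0.63 and 1.74 within those of the 5S reading, and for Acat2 rc_AA859980_g_at it was 0.13 and 0.66, and 0.55 and 0.44. In the stratum of high top intensity and in that outside the low 5S readings the only control was control replicate 3. On the Dhcr7 probe set it read 87.4, against 246 and 222.2 in the other controls.

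All 8 astrocyte, 8 myelin and 10 neuron markers with a named probe set were above the floor on at least 2 arrays. This does not test the tissue label, since the same filter kept 7770 probe sets and removed only 970. It also kept the blood and choroid plexus markers. No marker with a named probe set was left out by the filter. After 2 hr the summed marker intensity ran from 7150.4 to 15874.7 against 10141.8 to 17174.3 in controls for astrocytes, where 5 of 8 markers read higher, and from 6143 to 11735.8 against 8299.8 to 12351 for oligodendrocytes and myelin, where 2 of 8 did. For neurons the sums were 7975.4 to 12041 against 6973.9 to 12846.3, with 7 of 10 higher. The sums did not overlap for endothelial cells, at 1165.5 to 1567.4 against 452.2 to 1067.2 with 3 of 6 higher, and overlapped for microglia and macrophages, at 612.3 to 1135.8 against 578.9 to 627.3 with 6 of 6 higher. Without control replicate 3 the counts higher were 4 of 8 for astrocytes, 1 of 8 for oligodendrocytes and myelin, 4 of 10 for neurons, 2 of 6 for endothelial cells and 4 of 6 for microglia and macrophages. The median log2 change was then -0.22 for astrocytes and -0.23 for neurons, against 0.17 and 0.12 with all arrays. None of these markers passed limma's test, and the part of cell composition in the member values was not tested.

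The remaining enzymes of the pathway were described from a list of 19 genes, of which 8 were tested. After 2 hr 7 of the 8 read higher than the controls and 1 lower, with a median log2 change of 0.26, and 0 passed limma's test. Leaving out 1 array at a time gave counts from 5 to 7 of 8, the lowest without control replicate 2 (median 0.13). The median was 0.17 without control replicate 3 and 0.098 without 2 hr replicate 2. Mvd, which makes isopentenyl diphosphate, gave 170.4, 187 and 168.3 in controls, 173 and 226.9 after 1 hr, and 213.5, 253.5 and 216.3 after 2 hr (U53706_at). All 2 hr arrays lay above all controls. The group means differed by 0.38 (SE 0.238) on the log2 scale, and by 0.35 without control replicate 3.

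Nsdhl, a dehydrogenase that acts after Cyp51, also parted the groups, at 21.9, 22.6 and 21.7 in controls, 27.3 and 28.6 after 1 hr, and 34.6, 29.1 and 26.5 after 2 hr (rc_AA893032_at). Every exposed array lay above every control, and the difference of group means was 0.44 (SE 0.362) after 2 hr and 0.34 (SE 0.405) after 1 hr. Msmo1, the methylsterol oxidase of the same stage, read 0.51 (SE 0.316) after 2 hr on rc_AI172293_at and 0.78 on E12625cds_at, and 0.24 and 0.20 without control replicate 3. Hsd17b7, a sterol reductase, read 0.43 (SE 0.627), and 1.01 without control replicate 3. The adjusted p was 1.00 for each of these 4 genes in limma. Mvd and Nsdhl made up 2 of the 8 genes with no overlap upward, beside the 2.9% of all probe sets given above. After 1 hr 4 of the 8 genes read higher than the controls and 4 lower. The 1 hr ranges parted upward for 1 gene, Nsdhl, and downward for 1, against 7.54% and 5.11% of all probe sets.

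Among genes of sterol sensing and SREBP function 13 of 18 listed were tested, 5 read higher and 8 lower after 2 hr, with a median of -0.11 and 0 called by limma. Without 2 hr replicate 3 there were 7 higher and 6 lower with a median of 0.071, and without control replicate 3 the median was -0.21. Srebf1, which encodes SREBP-1, read 1.01 (SE 0.584) on L16995_at, where control replicate 3 gave 34.2 against 233.5 and 122.2 in the other controls, and 0.24 without it. Insig1, an SREBP target whose product holds SREBP in the endoplasmic reticulum, read -0.33 (SE 0.298) on L13619_at and 0.25 on L13619_g_at. Nfyc, a subunit of NF-Y, read 0.36 (SE 0.231) on rc_AA875121_at with all 2 hr arrays above all controls, and 0.25 on U17607_at. Without control replicate 3 these were 0.38 and -0.034. Sp1 read -0.54 (SE 0.450). In this list the 2 hr ranges parted from the controls upward for 1 of the 13 genes and downward for 1. The shares over all probe sets were 2.9% and 2.55%.

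**Figure D4:**
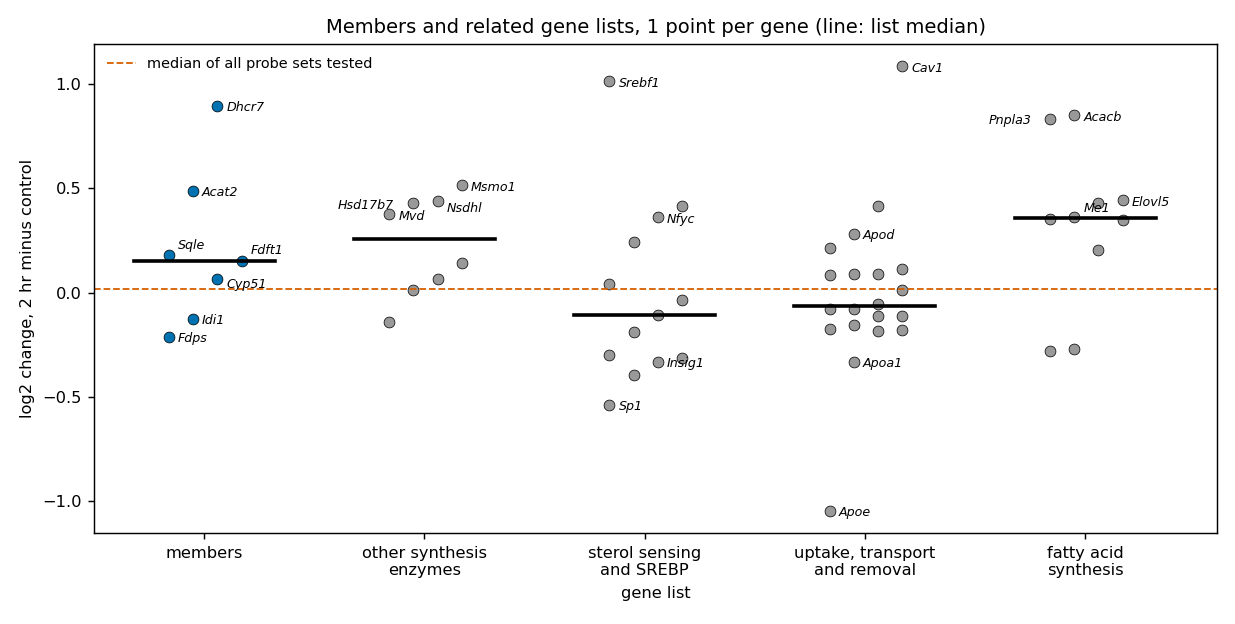
Log2 change for 2 hr minus control, 1 point per gene on its brightest probe set, for the 7 members and 4 related gene lists, with list medians as black lines and the median of all probe sets tested (0.02) dashed. Dhcr7 and Acat2 lie above the other members, and the median of the other synthesis enzymes is 0.26.

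Of the 5 genes outside these lists whose brightest probe set had the highest Pearson correlation with the mean profile of the members over the 8 arrays, Hnrnpf, a splicing factor, came first (r = 0.99). It read 115.1, 162.8 and 59.5 in controls, 125.7 and 117.7 after 1 hr, and 279.5, 161.2 and 104.2 after 2 hr, so it shared the low control replicate 3 and the high 2 hr replicate 1. Bhlhe41, a circadian repressor (r = 0.96), Rapgef4, a cAMP-activated exchange factor (r = 0.95), Hibadh, an enzyme of valine breakdown (r = 0.94), and Rhob, a small GTPase (r = 0.94), followed. None of the 5 passed limma's test for 2 hr against control. With 8 arrays and 4309 genes ranked, these correlations are a description only.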

How the data were processed

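The deposited values are linear intensities, 1 for each probe set on each of 8 arrays. No label or header names the software that made them. Trimmed means (2% at each end) ran from 149.6 to 149.9 against a tolerance of 5%, so columns were used as deposited. The 59 control probe sets were left out, values were floored at the 20th percentile (9.1), log2 was taken, and 7770 probe sets above the floor on at least 2 arrays were kept. The floor understates changes of dim probe sets, and the number of arrays limits the precision. Between any 2 arrays at most 70 values were equal.

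In the platform annotation 7006 probe sets carried 1 gene symbol, 308 carried several and 1426 carried none. Symbols were updated through the gene number to RefSeq, assembly GRCr8, which also gave the promoters, and the members were then found by symbol.

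Limma 3.58.1 in R 4.3.3 (lmFit, contrasts.fit, eBayes with an intensity trend) was fitted to all 8 arrays with 1 mean per group, two-sided, with Benjamini-Hochberg adjustment over all probe sets and a threshold of 0.05. The steps were run on simulated data with independent noise, which hold none of the differences between arrays described above. The check asked only whether the mean estimate of an added change was recovered. It does not tell how many changes limma could call here. Every member probe set is named. From each related list up to 4 genes with the smallest unadjusted p for 2 hr against control are named, and 5 genes by correlation with the members' mean profile. Members, lists, tests and the blocks by top intensity and 5S reading were chosen with earlier results of these data known. Alternatives were other normalizations, floors and filters, a pseudocount of 16, no trend, blocks, the mean of a gene's probe sets and leaving out each array. Counts of members above 0, counts at an unadjusted p under 0.05 and leave-one-out values of the related lists were added after seeing the data.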

Additional observations from a re-analysis of the deposited data

How the results depend on the processing

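No member passed limma's test under any of 19 alternative settings, and the smallest adjusted p of a member in any of them was 0.584. With no filter limma called 4 probe sets for 1 hr against control and 4 for 2 hr against 1 hr, none of them members, and the cause was not tested. In the other settings it called 0. Leaving out 1 array at a time moved the 2 hr change of Acat2 rc_AA859980_at between 0.31 and 0.73, of Sqle between 0.013 and 0.40 and of Fdps M89945mRNA_at between -0.33 and -0.054. The median over the 7 genes ran from -0.052 (without control replicate 3) to 0.30 for 2 hr against control, from -0.087 to 0.29 for 1 hr and from -0.0043 to 0.34 for 2 hr against 1 hr. Of the 54 changes of single probe sets 26 kept their direction in all settings that gave a value. For 2 hr against control these were, upward, both Dhcr7 and both Acat2 probe sets, 3 of the 5 of Cyp51, Fdft1 M95591_g_at and Sqle. Downward it was Fdps M89945mRNA_at. Some settings could not turn a direction, since the filters and the trend leave group means as they were. Leaving out an array of the group not compared does the same. The strict filter left out Cyp51 rc_AI230255_at. The following turned direction, none of them called, and the cause was not tested.

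Median centring gave -0.013 for Cyp51 U17697_s_at at 2 hr, and -0.055 for Sqle and -0.078 for Acat2 rc_AA859980_g_at at 1 hr. The replicate block gave -0.074 for Sqle and -0.040 for Acat2 rc_AA859980_g_at at 1 hr and 0.10 for Fdft1 rc_H33426_g_at at 2 hr against 1 hr, and called 0 probe sets. The numbers were not taken as pairs, and no label names the animal behind a sample. Correlations of deviations between same-numbered arrays ran from -0.33 to 0.29 over 7 pairs, and not every array followed its own number best. Deviations of the 2 arrays at 1 hr from their mean are mirror images, so these correlations cannot decide whether samples were paired. The block for high top intensity gave 0.00080 for Fdft1 M95591_at, 0.018 for Cyp51 rc_AA963449_s_at and 0.037 for Cyp51 U17697_s_at at 1 hr, and -0.088 for Fdft1 M95591_g_at and -0.039 for Dhcr7 AB016800_at at 2 hr against 1 hr. The block for low 5S reading gave 0.18 for Idi1 and -0.032 for Fdps rc_AI180442_at at 2 hr, and at 1 hr 0.14 for Fdft1 M95591_at, 1.43 for Cyp51 rc_AA963449_s_at and 0.29 for Cyp51 U17697_s_at, which is also the median there. For 2 hr against 1 hr it gave 0.048 for Fdps M89945mRNA_at, -0.32 for Fdft1 M95591_g_at, -0.036 for Sqle, -0.12, -0.15 and -0.062 for Cyp51 rc_AA963449_s_at, rc_AA997614_s_at and U17697_s_at, and -0.15 for Dhcr7 AB016800_at.

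Leaving out 1 array at a time gave these ranges. For 2 hr against control they were -0.56 to 0.20 for Idi1, -0.33 to 0.012 for Fdps M89945mRNA_g_at, -0.10 to 0.49 for Fdps rc_AI180442_at, -0.052 to 0.30, -0.075 to 0.25 and -0.087 to 0.43 for Fdft1 M95591_at, rc_H33426_at and rc_H33426_g_at, and -0.54 to 0.98 and -0.12 to 0.39 for Cyp51 rc_AA963449_s_at and U17697_s_at. For 1 hr against control they were -0.16 to 0.24 for Acat2 rc_AA859980_g_at, -0.29 to 0.84 for Idi1, -0.30 to 0.0042 for Fdps M89945mRNA_at, -0.25 to 0.10 and -0.16 to 0.81 for Fdft1 M95591_at and rc_H33426_g_at, -0.087 to 0.28 for Sqle, -1.27 to 0.25, -1.02 to 1.70 and -0.18 to 0.093 for Cyp51 rc_AA963449_s_at, rc_AI230255_at and U17697_s_at, and -0.21 to 0.54 for Dhcr7 AB016800_g_at. For 2 hr against 1 hr they were -0.97 to 0.17 for Idi1, -0.20 to 0.085 for Fdps M89945mRNA_at, -0.30 to 0.43 and -0.64 to 0.33 for Fdft1 M95591_g_at and rc_H33426_g_at, -0.047 to 0.25 for Sqle, -1.09 to 1.63 and -0.085 to 0.43 for Cyp51 rc_AI230255_at and U17697_s_at, and -0.10 to 0.25 for Dhcr7 AB016800_at.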

Other observations

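Fatty acid synthesis, which SREBP-1 controls, was read through 10 tested genes of 17 listed. After 2 hr 8 of them read higher than the controls and 2 lower, with a median log2 change of 0.36, and 0 passed limma's test. Without control replicate 3 the count was 6 of 10 and the median 0.21. Acacb, an acetyl-CoA carboxylase, read 0.85 (SE 0.406), but lay at or below the floor on 4 of the 8 arrays, 2 controls among them. Pnpla3, a lipid droplet hydrolase, read 0.83 (SE 0.457) and Elovl5, a fatty acid elongase, 0.44 (SE 0.276). Me1, the malic enzyme that supplies NADPH, read 0.36 (SE 0.315) on its brightest probe set, and 0.18 without control replicate 3. Its other tested probe sets read 0.14, 0.14, 0.19 and -0.33, and without that array -0.32, -0.096, -0.084 and -0.082. Scd2, the main stearoyl-CoA desaturase of the brain, was chosen after its values were seen. Its probe set AF036761_at gave 271.2, 121.8 and 69.8 in controls, 194.2 and 567.6 after 1 hr, and 607.9, 421.2 and 452.7 after 2 hr. All 2 hr arrays lay above all controls. The group means differed by 1.88 (SE 0.524, unadjusted p = 0.00519, adjusted p = 1.00 in limma), and by 1.42 without control replicate 3. The other 4 tested probe sets of Scd2 read between 0.43 and 1.56. The brightest of all, M15114_g_at, read 0.43 and turned to -0.39 without that array. U67995_s_at then went from 1.56 to 0.48, rc_AA875269_at from 0.54 to 0.088 and S75730_at from 0.44 to 0.41.

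Cholesterol uptake, transport and removal was read through 20 tested genes of 35 listed, with 9 above the controls after 2 hr and 11 below, a median of -0.07 and 0 called by limma. Without 2 hr replicate 3 there were 12 above and 8 below, with a median of 0.063. Apod, an apolipoprotein, read 0.28 (SE 0.244) after 2 hr and 0.65 (SE 0.273) after 1 hr, with every exposed array above every control on X55572_at. Cav1, a caveolar protein that binds cholesterol, read 1.08 (SE 0.747), and Apoa1, the main apolipoprotein of high-density lipoprotein, -0.33 (SE 0.420). All 2 hr arrays of Apoa1 lay below all controls. The 2 hr ranges parted upward for 1 of the 20 genes and downward for 1, against 2.9% and 2.55% of all probe sets. Apoe, the main lipid carrier of the brain, spread widely on X04979_at. It read 979.6 in the second 2 hr sample and 1429.4 in the second 1 hr sample, while the remaining 6 arrays lay from 7962.1 to 17436.3. The brightest probe set of any kind reached 3504.2 and 5080.7 in those same samples, against 9846.4 to 37711.8 elsewhere.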
